A study of Mus musculus with 6 samples.

Results

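The genes described are those of the cytosolic ribosomal proteins of mouse pro-B cells, 72 of the 17097 genes measured. They were chosen by name: a gene was taken where its probe set carried a single symbol beginning with Rpl or Rps and a digit, or the symbol Rplp0, Rplp1, Rplp2 or Rpsa. Symbols of the ribosomal S6 kinases (Rps6k) and of pseudogenes were left out. The rule itself uses no measured value, but it was set with earlier results of these data known. A gene with several probe sets is represented by the one with the highest mean over the arrays. Of the 72 genes, 26 carry small-subunit names and 46 large-subunit names. They comprise 65 ribosomal proteins, 6 paralogues of such proteins (Rpl3l, Rpl7l1, Rpl22l1, Rpl36al, Rpl39l and Rps27l) and Rps19bp1, which is named after the ribosomal protein it binds. Rpl5 and Rps3 are absent because their probe sets carry a second gene symbol.

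Expression was measured on Affymetrix perfect-match mouse arrays in sorted pro-B cells (B220+CD43+IgM-), an early stage of B cell development. The arrays fall into 3 of wild-type cells and 3 labelled HDAC7 deficient, from conditional mice for HDAC7, a class IIa histone deacetylase. The labels call them biological triplicates and give neither the Cre driver, nor the deleted exons, nor the ages or sexes of the mice. Total RNA was amplified over the whole transcriptome before biotin labelling. Values are log2 signals, and every difference is that of HDAC7 deficient minus wild type on the log2 scale.

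A ribosome is built from a small subunit, which reads the mRNA, and a large subunit, which joins the amino acids and releases the growing chain through its exit tunnel. Ribosomal proteins are needed in matched amounts, and their mRNAs are among the most abundant of dividing cells. Most of these mRNAs begin with a terminal oligopyrimidine (TOP) tract, through which the mTOR kinase and the protein LARP1 control their translation. That control acts on translation, which an array of RNA levels does not measure.

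A pyrimidine hexamer was searched at the start sites of these genes. RefSeq windows of 250 bases before to 50 bases after the start (assembly GRCm38.p6) were given for 58 of the 72 genes. The hexamer CTTTCC, searched on the sense strand within 30 bases of the start, was in 8 of the 58 genes (13.8%) and in 3.25% of 17492 protein-coding genes. The windows below run from 10 bases before the start and are shown for 3 ribosomal proteins and, for contrast in signal, the paralogue Rpl39l, where the match lies before the start; capitals mark CTTTCC, and other pyrimidine tracts were not searched.
Rpl15 (chr14:18270967-18270996, minus strand): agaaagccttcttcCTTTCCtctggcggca
Rpl35a (chr16:33056472-33056501, plus strand): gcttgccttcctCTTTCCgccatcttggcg
Rpl28 (chr7:4792955-4792984, plus strand): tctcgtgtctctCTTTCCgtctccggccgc
Rpl39l (chr16:10170218-10170247, plus strand): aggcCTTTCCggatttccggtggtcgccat

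A second sequence was frequent upstream of the start. CCGGAAG, the core of binding sites of ETS-family factors, was searched on both strands of the whole window and was in 25 of the 58 genes (43.1%), against 12.9% of protein-coding genes. AAGATGGC, on both strands, was in 8.62% of the genes and in 3.57% of protein-coding genes. TATAAA, on the sense strand 40 to 20 bases before the start, was in 1.72% and 2.92%. The 170 bases before the start are shown for 2 ribosomal proteins and Rpl39l, each of which holds CCGGAAG in 2 places, in capitals.
Rpl15 (chr14:18270987-18271156, minus strand): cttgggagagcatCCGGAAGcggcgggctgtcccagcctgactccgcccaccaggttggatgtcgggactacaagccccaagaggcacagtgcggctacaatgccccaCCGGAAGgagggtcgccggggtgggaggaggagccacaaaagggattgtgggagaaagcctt
Rps18 (chr17:33955666-33955835, minus strand): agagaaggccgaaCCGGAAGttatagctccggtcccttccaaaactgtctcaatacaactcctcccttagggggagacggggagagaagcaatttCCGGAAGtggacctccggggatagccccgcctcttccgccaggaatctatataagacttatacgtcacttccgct
Rpl39l (chr16:10170058-10170227, plus strand): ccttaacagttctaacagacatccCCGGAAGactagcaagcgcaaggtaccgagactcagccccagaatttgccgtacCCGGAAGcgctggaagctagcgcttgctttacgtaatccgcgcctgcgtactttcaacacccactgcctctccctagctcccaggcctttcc
These matches describe the letters of the windows and not binding or use. Rpl15 read 11.42 to 11.94 on the 6 arrays, whereas Rpl39l, with the same 2 kinds of match, read 5.13 to 6.98. Signals of different probe sets also depend on the probes' own sequences, so they do not rank the genes by transcript number.

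Arrays of the same genotype differed among themselves. Wild-type replicate 3 correlated with the other arrays at 0.70 to 0.82 and its values had an interquartile range of 1.72, compared with 2.27 to 2.93. Its 3′ control probe set of Actb exceeded the middle one by 1.69, and by 0.16 to 0.26 on the remaining arrays. For Gapdh the same difference did not set it apart, at 0.25 compared with 0.22 to 0.33. Xist, the RNA of the inactive X chromosome, separated HDAC7-deficient replicates 2 and 3 and the third wild-type array (8.51 to 11.40) from the other 3 arrays (4.87 to 5.38). Hdac7 read 9.06, 9.48 and 7.31 in wild type and 9.95, 9.54 and 9.27 on the arrays labelled HDAC7 deficient, so its level does not check the label. Markers of pro-B cells were present, with Ebf1 at 10.15 to 10.48, Pax5 at 7.78 to 10.28 and Cd79a at 8.34 to 10.04. The 14 measured pro-B markers had array medians of 9.93, 10.34 and 8.25 in wild type and 10.47, 9.72 and 9.65 in HDAC7 deficient. With all arrays 10 of the 14 had a positive change (48.0% of all genes). Without wild-type replicate 3, 10 were lower (56.8% of all genes), with a median change of -0.23. Lyz2, a myeloid gene, was also high, at 10.75 to 11.31, and the 10 myeloid markers had array medians of 9.36 to 10.92 in wild type and 10.72 to 11.28 in HDAC7 deficient. The 6 markers of plasmacytoid dendritic cells had array medians of 7.24 to 10.30 and 10.24 to 10.54, and the part of other cells in the results was not tested.

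The ribosomal protein genes gave high signals on every array. Their median was 11.26, 11.27 and 10.70 on the wild-type arrays and 11.22, 11.18 and 11.15 on the HDAC7-deficient arrays, whereas the median of all genes lay between 6.34 and 6.47. Wild-type replicate 3 was the lowest of the 6 for these genes. A signal of at least 11 was reached by 51, 52 and 29 of the 72 genes in wild type and by 44, 48 and 50 in HDAC7 deficient. From 34 to 43 of them, depending on the array, lay in the top 1% of all genes. The highest signal of any probe set on an array was 12.56 to 12.90, so the brightest ribosomal protein genes lay close to the top of the scale, where changes can be compressed.

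**Figure D1:**
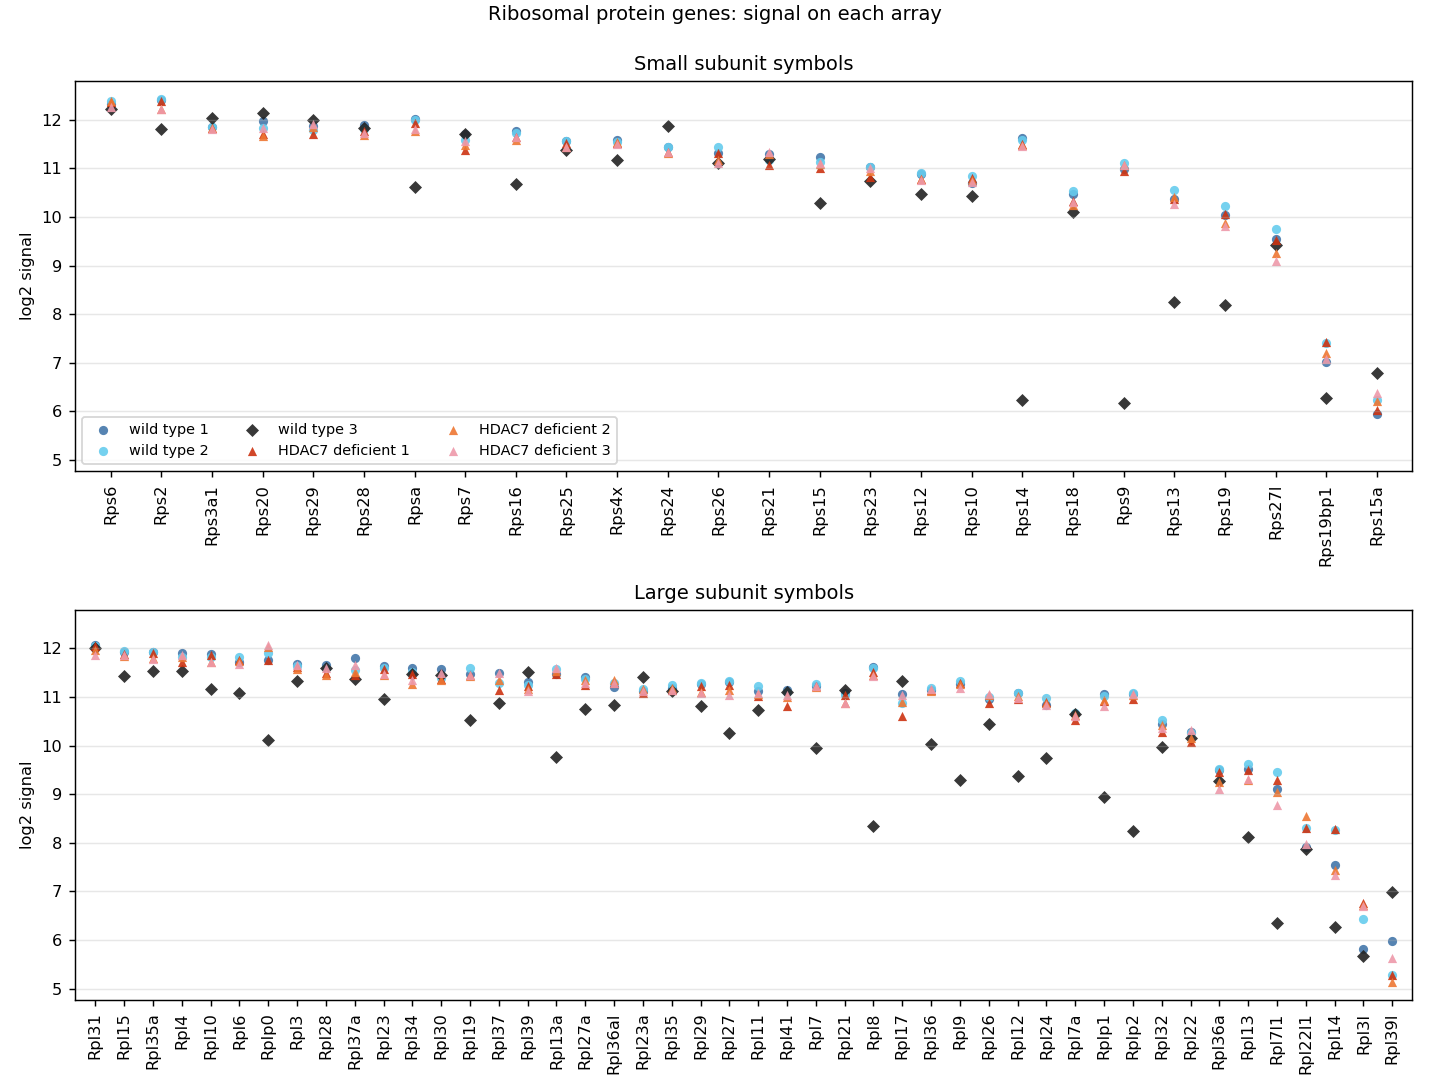
Log2 signal (vertical axes) of each of the 72 genes on each array, with small-subunit names above and large-subunit names below, ordered by mean; circles are wild-type replicates 1 and 2, black diamonds wild-type replicate 3 and triangles the 3 HDAC7-deficient arrays. The 5 coloured marks of a gene mostly coincide, while the black diamond lies far below them for Rps14, Rps9 and Rpl8.

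Apart from wild-type replicate 3, the arrays gave nearly the same levels, as they did for other genes near the top of the scale. Over the other 5 arrays the range of a ribosomal protein gene, highest minus lowest, had a median of 0.21. The same range had a median of 0.53 over 73 mitochondrial ribosomal protein genes, 0.52 over the brightest 25% of genes and 0.56 over all genes. The range was under 0.5 for 66 of the 72 genes (91.7%), for 47.4% of the brightest 25% and for 42.5% of all genes. These comparison sets have lower signals: at a mean of at least 11, the median range was 0.19 for 41 ribosomal protein genes and 0.22 for 119 other genes. Genes with a mean of at least 11 were set apart after the data were seen, and the part of compression at high signals was not tested. The 6 genes with wider ranges were Rpl22l1 (0.63), Rps27l (0.66), Rpl7l1 (0.67), Rpl39l (0.84), Rpl3l (0.93) and Rpl14 (0.95). Of these 6, 5 are paralogues, and Rpl14, a large-subunit protein, is the other; they are named because of their values. The Rpl14 probe set has a low signal (mean 7.52), and 4 probe sets annotated to Rpl14 and its pseudogene together, with means of 10.74 to 10.90, had ranges of 0.10 to 0.42.

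**Figure D2:**
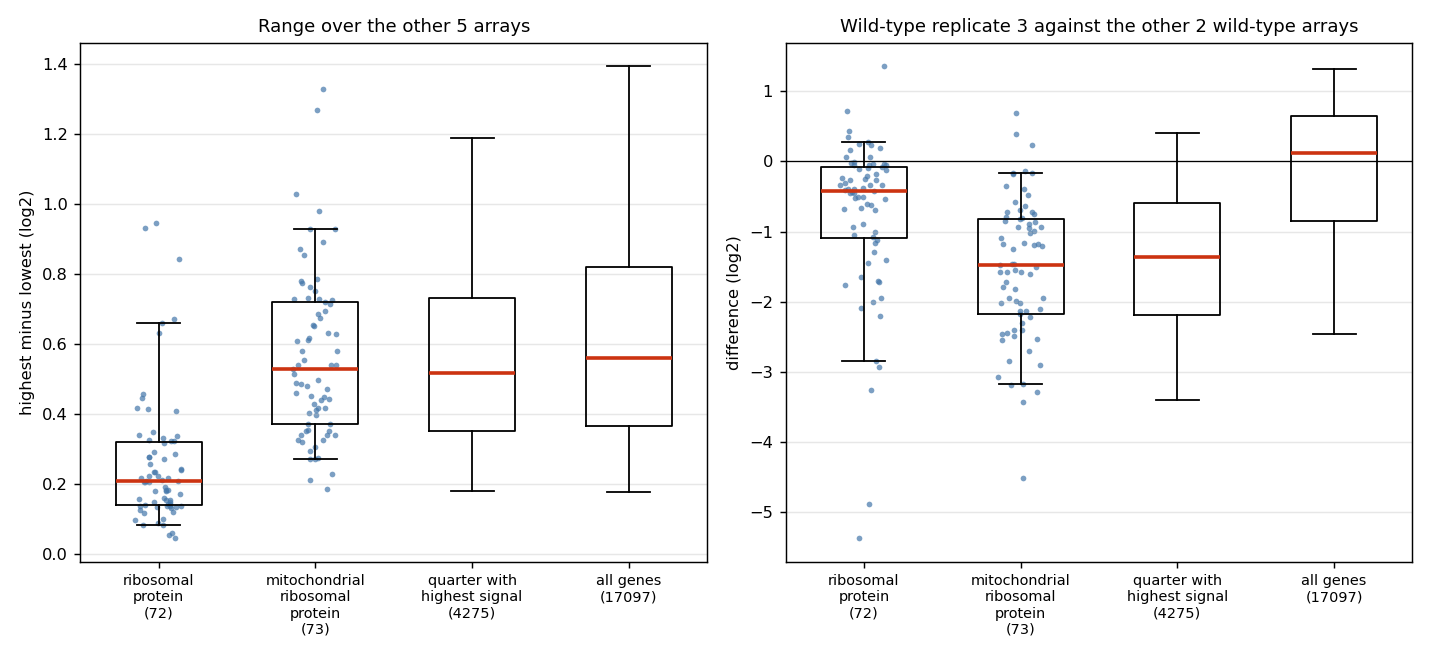
Left, range over the 5 arrays other than wild-type replicate 3; right, wild-type replicate 3 minus the mean of wild-type replicates 1 and 2 (both log2). Boxes give the quartiles with the median in red, whiskers the 5th and 95th percentiles, and points single genes of the ribosomal and mitochondrial ribosomal protein lists; the ribosomal protein genes have a median range of 0.21 and a median difference of -0.42.

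With all 6 arrays, none of the 72 genes passed a limma adjusted p of 0.05, and neither did any of the 17097 genes (0.0%). At an unadjusted p under 0.05, 1 ribosomal protein gene was higher and 0 were lower, against 3.52% and 9.14% of all genes. The lowest adjusted p of a ribosomal protein gene with limma was 0.377. Their median change was 0.07, with 0.02 for small-subunit and 0.11 for large-subunit names; it was -0.03 over all genes and 0.56 over the brightest 25%. Of the 72 genes, 45 had a positive change (48.0% of all genes did). In 11 genes every HDAC7-deficient array lay below every wild-type array (16.8% of all genes), and in 1 every one lay above (9.45%).

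Leaving out wild-type replicate 3 turned the direction. The median change was then -0.10, compared with -0.05 over all genes and 0.06 over the brightest 25%. In HDAC7 deficient, 64 of the 72 genes were lower (88.9%), compared with 56.8% of all genes and 40.1% of the brightest 25%. At a mean of at least 11, 38 of 41 ribosomal protein genes were lower (92.7%, median -0.10) and 66 of 119 other genes (55.5%, median -0.02). In 38 genes (52.8%) the HDAC7-deficient arrays all lay below both remaining wild-type arrays, compared with 19.0% of all genes. Again no gene passed limma's adjusted p of 0.05 (0.0% of all genes), and the lowest value among ribosomal protein genes was 0.310. At an unadjusted p under 0.05, 4 were lower (8.84% of all genes) and 1 was higher (5.19%). The shift is small: of the 65 ribosomal proteins proper, the changes ran from -0.23 to 0.13.

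The same contrast was taken within the division of the arrays by Xist. On the arrays low in Xist (HDAC7-deficient replicate 1 against wild-type replicates 1 and 2) the median change was -0.07, and 63 of the 72 genes were lower (54.1% of all genes). On the arrays high in Xist (HDAC7-deficient replicates 2 and 3 against wild-type replicate 3) it was 0.34, and 52 were higher (45.8% of all genes). Each side has a single array in one of its groups, and the second rests on wild-type replicate 3. With the Xist division as a block, the median was 0.14 with all arrays. Without wild-type replicate 3 the block leaves only HDAC7-deficient replicate 1 against wild-type replicates 1 and 2. It therefore repeats the value of the arrays low in Xist (-0.07) and is no further result.

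**Figure D3:**
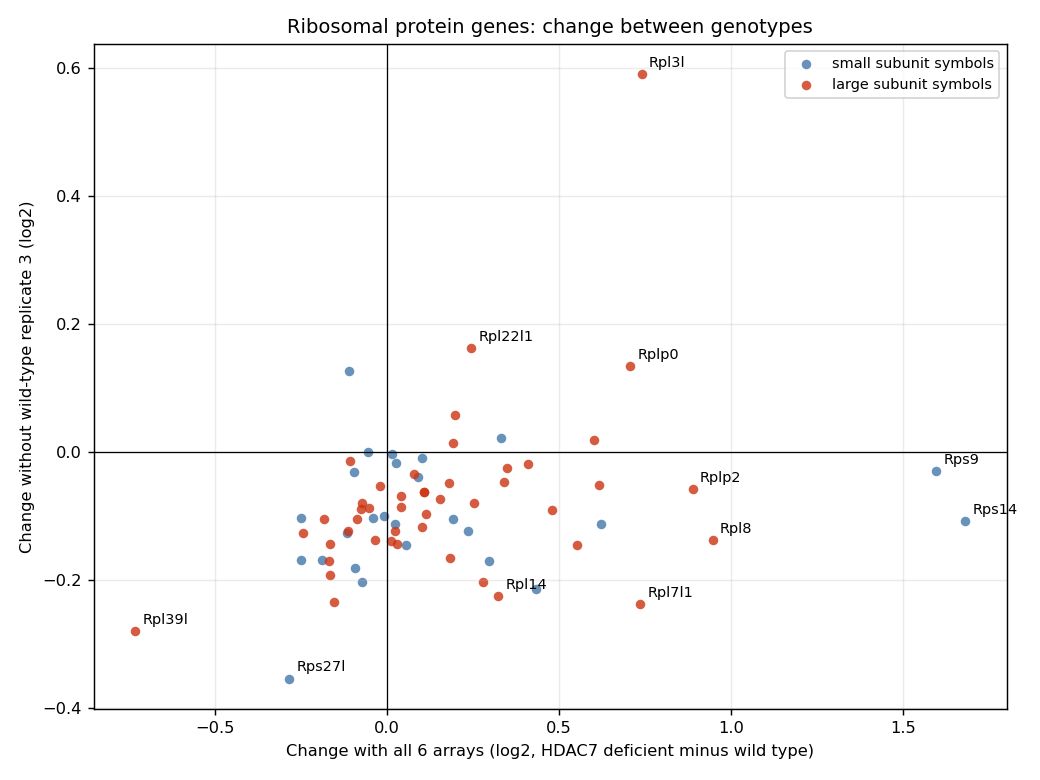
Each point is 1 of the 72 genes, with its change from all 6 arrays on the horizontal axis and its change without wild-type replicate 3 on the vertical axis (log2, HDAC7 deficient minus wild type). Rps14 and Rps9 lie far to the right at 1.68 and 1.60 but near 0 vertically, most points lie below the horizontal line, and Rpl3l is high on both axes.

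Several small-subunit genes with high signals differed little between the groups. Rps6, the substrate of the S6 kinases, read 12.32, 12.39 and 12.23 in wild type and 12.36, 12.39 and 12.25 in HDAC7 deficient. All 6 values lie within a narrow band and the groups overlap; the change was 0.03 ± 0.23 (SE; limma adjusted p = 0.944). Rps3a1, another small-subunit protein, read 11.85, 11.85 and 12.04 against 11.82, 11.83 and 11.80. The HDAC7-deficient values were the lower ones throughout, by -0.10 ± 0.24 (limma adjusted p = 0.789). Rps29, a zinc-binding protein, read 11.86, 11.78 and 11.99 against 11.70, 11.85 and 11.91, with overlapping groups.

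Rps2 and Rpsa were 2 of the 4 genes with an unadjusted p under 0.05 on the lower side once wild-type replicate 3 was left out. Rps2, which lines the path of the mRNA into the ribosome, read 12.41, 12.43 and 11.81 in wild type and 12.37, 12.22 and 12.22 in HDAC7 deficient. Its groups overlap only through the third wild-type array. The change was 0.06 ± 0.28 with all arrays (limma adjusted p = 0.896) and -0.15 ± 0.06 without that array (0.331). Rpsa, also known as the laminin receptor, read 12.02, 12.002 and 10.61 against 11.93, 11.77 and 11.81, and its change went from 0.30 to -0.17 ± 0.06 (limma adjusted p = 0.310) without it.

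Rps20, Rps7 and Rps24 were lower in HDAC7 deficient with and without that array, but did not pass the test. With the mean over probe sets the changes of Rps20 and Rps24 were 0.26 and 0.09, and without _x_at and _s_at probe sets that of Rps20 was 1.01. Rps20 read 11.97, 11.83 and 12.14 in wild type and 11.70, 11.67 and 11.82 in HDAC7 deficient. The groups do not overlap, by the margin between 11.83 and 11.82, and the change was -0.25 ± 0.25 (limma adjusted p = 0.517). Rps7, one of the ribosomal proteins that bind Mdm2, read 11.70, 11.59 and 11.71 against 11.38, 11.48 and 11.56, a change of -0.19 ± 0.25 (limma adjusted p = 0.607). Rps24, which is mutated in some patients with Diamond-Blackfan anaemia, read 11.43, 11.43 and 11.87 against 11.33, 11.31 and 11.33. Here the third wild-type array is the highest of the 6, and without it the change was -0.10 in place of -0.25.

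Rps14 and Rps9 had the largest positive changes, and a single array carried both. Rps14, whose loss of 1 copy underlies the anaemia of the 5q- syndrome, read 11.62, 11.57 and 6.23 in wild type and 11.50, 11.49 and 11.47 in HDAC7 deficient. Rps9, a small-subunit protein that binds ribosomal RNA early in assembly, read 10.99, 11.11 and 6.17 against 10.95, 11.06 and 11.06. In Rps14 the third wild-type array lies 5.36 below the mean of its partners and in Rps9 4.88 below, and the other 5 values are nearly equal. The changes were 1.68 ± 1.38 and 1.60 ± 1.26 with all arrays (limma adjusted p = 0.462 and 0.452) and -0.11 ± 0.06 and -0.03 ± 0.09 without it (0.449 and 0.895).

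Rps19, the gene most often mutated in Diamond-Blackfan anaemia, showed the same shape at a smaller size. It read 10.04, 10.22 and 8.19 in wild type and 10.06, 9.88 and 9.81 in HDAC7 deficient, and its change went from 0.43 to -0.21 without the third wild-type array. Rps15a had a low signal, 5.94, 6.23 and 6.80 against 6.03, 6.22 and 6.38, on its only single-symbol probe set. The third wild-type array is its highest value, and the change was -0.11 ± 0.27 (limma adjusted p = 0.783). Of the probe sets named after its pseudogene Rps15a-ps6, 1453467_PM_s_at read 10.59, 10.68 and 9.52 against 10.54, 10.70 and 10.59. The other, 1430290_PM_at, read 6.73, 6.43 and 7.43 against 6.77, 6.90 and 6.69. Whether either reads the mRNA of Rps15a was not determined. Rps19bp1, no ribosomal protein itself, read 7.02, 7.41 and 6.29 against 7.44, 7.19 and 7.08.

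In the large subunit, the stalk proteins Rplp0, Rplp1 and Rplp2 recruit the GTPases of translation. Rplp0 read 11.75, 11.89 and 10.11 in wild type and 11.76, 12.04 and 12.07 in HDAC7 deficient. HDAC7-deficient replicates 2 and 3 were its highest arrays, and the change was 0.71 ± 0.50 (limma adjusted p = 0.429), or 0.13 ± 0.10 without the third wild-type array. Its partners did not share this: without that array Rplp1 changed by -0.15 ± 0.08 and Rplp2 by -0.06 ± 0.08. Rplp2 read 11.06, 11.08 and 8.23 against 10.95, 11.03 and 11.06, and Rplp1 read 11.05, 11.02 and 8.94 against 10.91, 10.94 and 10.82. The difference between Rplp0 and its partners was not tested.

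Rpl8, which lies at the peptidyl transferase centre, read 11.61, 11.60 and 8.35 in wild type and 11.51, 11.45 and 11.43 in HDAC7 deficient. Leaving out the third wild-type array took its change from 0.95 ± 0.86 to -0.14 ± 0.06 (limma adjusted p = 0.489 and 0.377). Rpl9, a further large-subunit protein, read 11.26, 11.33 and 9.29 against 11.28, 11.26 and 11.19. Rpl13a, also a subunit of the GAIT complex of translational silencing, read 11.47, 11.57 and 9.77 against 11.47, 11.54 and 11.60. In these genes, too, the groups overlap, and 5 of 6 values lie close together.

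Other large-subunit genes were barely lowered on the third wild-type array. Rpl34, a structural protein of the large subunit, read 11.60, 11.50 and 11.47 in wild type and 11.46, 11.26 and 11.35 in HDAC7 deficient. Every HDAC7-deficient value lies below every wild-type value, with a change of -0.17 ± 0.25 (limma adjusted p = 0.658) and -0.19 ± 0.08 (0.347) without that array. Rpl39, a small protein that lines the exit tunnel, read 11.31, 11.24 and 11.51 against 11.22, 11.17 and 11.13. Rpl31, at the mouth of that tunnel, read 12.08, 12.04 and 12.003 against 12.04, 11.97 and 11.85, and its groups overlap.

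Rpl15 and Rpl35a, whose start windows are printed above, are both mutated in Diamond-Blackfan anaemia. Rpl15 read 11.92, 11.94 and 11.42 in wild type and 11.89, 11.85 and 11.87 in HDAC7 deficient, and Rpl35a read 11.92, 11.91 and 11.53 against 11.90, 11.81 and 11.79. Their changes were 0.11 ± 0.27 and 0.04 ± 0.26 (limma adjusted p = 0.790 and 0.917), and without the third wild-type array, the lowest in both, every HDAC7-deficient value lay below the wild-type ones. Rpl17, which also lies at the exit tunnel, read 11.06, 10.88 and 11.33 against 10.60, 10.90 and 11.03. Rpl13 and Rpl14 had lower signals, at 8.12 to 9.62 and 6.26 to 8.28, with the third wild-type array lowest in both.

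In 4 of 5 measured pairs the paralogue had a wider range over the 5 other arrays than the protein it resembles, with Rpl36al (0.14) and Rpl36a (0.42) as the exception. In all 5 pairs the wider range was that of the probe set with the lower signal. Rpl3l, a form of Rpl3 known from heart and skeletal muscle, was the only gene of the 72 in which every HDAC7-deficient array lay above every wild-type array. It read 5.82, 6.44 and 5.68 in wild type and 6.75, 6.72 and 6.69 in HDAC7 deficient. Its change was 0.74 ± 0.25 (limma adjusted p = 0.377), and 0.59 ± 0.23 without the third wild-type array (0.332). Rpl3 itself, on its own probe set, read 11.68, 11.63 and 11.32 against 11.62, 11.58 and 11.66, and changed by 0.08 ± 0.26. The signal of Rpl3l lies near the median of all genes, and whether it stands above background was not tested.

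Rpl39l, a form of Rpl39 known from the male germline, read 5.98, 5.28 and 6.98 in wild type and 5.28, 5.13 and 5.63 in HDAC7 deficient. The groups overlap and the third wild-type array is the highest; the change was -0.73 ± 0.42 (limma adjusted p = 0.390). Rpl22l1 read 7.92, 8.30 and 7.87 against 8.30, 8.55 and 7.97, a change of 0.24 ± 0.30, while Rpl22, which is required for T cell development, changed by -0.05 ± 0.27. Rps27l, a p53 target in other cells, read 9.54, 9.74 and 9.43 against 9.52, 9.26 and 9.08. It changed by -0.28 ± 0.29 (limma adjusted p = 0.528), and by -0.35 ± 0.18 without the third wild-type array.

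None of the genes of the remaining pairs passed the test. Rpl7l1, which takes part in assembly of the large subunit, read 9.10, 9.46 and 6.35 in wild type and 9.29, 9.04 and 8.78 in HDAC7 deficient, and Rpl7 read 11.22, 11.26 and 9.95 against 11.23, 11.21 and 11.22. Without the third wild-type array they changed by -0.24 ± 0.21 and -0.02 ± 0.07. Rpl36a, encoded on the X chromosome, changed by -0.15 ± 0.29 and its autosomal form Rpl36al by 0.20 ± 0.27 with all arrays. Leaving out the third wild-type array gave -0.23 ± 0.17 for Rpl36a and 0.06 ± 0.07 for Rpl36al. Every HDAC7-deficient value of Rpl36a then lay below the wild-type ones, and its change was the lowest of the 65 ribosomal proteins. With all arrays, the X-encoded Rps4x and Rpl10, whose paralogues were not analysed here, changed by 0.09 ± 0.26 and 0.15 ± 0.30.

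Wild-type replicate 3 did not lower all ribosomal protein genes alike. Relative to the mean of wild-type replicates 1 and 2, the 72 genes had a median difference of -0.42, with a span from -5.36 (Rps14) to 1.35 (Rpl39l). It was below the other wild-type arrays by more than 1 in 21 genes (29.2%), compared with 62.5% of the brightest 25% and 22.0% of all genes. It was above them in 11 genes, among them Rps24 (0.44), Rpl17 (0.35), Rps20 (0.24), Rpl39 (0.24) and Rps3a1 (0.19). Mitochondrial ribosomal protein genes had a median difference of -1.48.

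Probe sets of the same gene disagreed on this array. The 3 probe sets of Rpl17 gave differences from -2.13 to 0.96, the 3 of Rps13 from -2.69 to 0.22 and the 2 of Rpl9 from -2.002 to 0.05. Over all 135 probe sets of the 72 genes, the 44 with IDs ending in _x_at, a mark of probes that may match other sequences, had a median of -0.11. The 45 ending in _a_at, the 38 ending in plain _at and the 8 ending in _s_at had medians of -0.54, -0.44 and -0.57. Ribosomal protein genes have many processed pseudogenes, so their probe sets can share signal with near-identical copies, and such sharing was not tested.

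A further 63 probe sets read the same genes without being chosen to represent them, 34 with a mean signal of at least 9 and 29 with a lower one. The 34 had a median change of 0.03, and in 0 of them were all HDAC7-deficient arrays the higher ones. Of the 29, 24 had a positive change (48.0% of all 45037 probe sets) and 10 had every HDAC7-deficient array above every wild-type array (11.5%). Without wild-type replicate 3, 16 of the 29 had a positive change (48.4% of all probe sets), and their median went from 0.23 to 0.08. At an unadjusted p under 0.05, 7 were higher, against 5.97% of all probe sets. None passed limma's adjusted p of 0.05 (0.0% of all probe sets); the lowest value was 0.306, and 0.141 without wild-type replicate 3. These probe sets were set apart after their values had been seen.

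**Figure D4:**
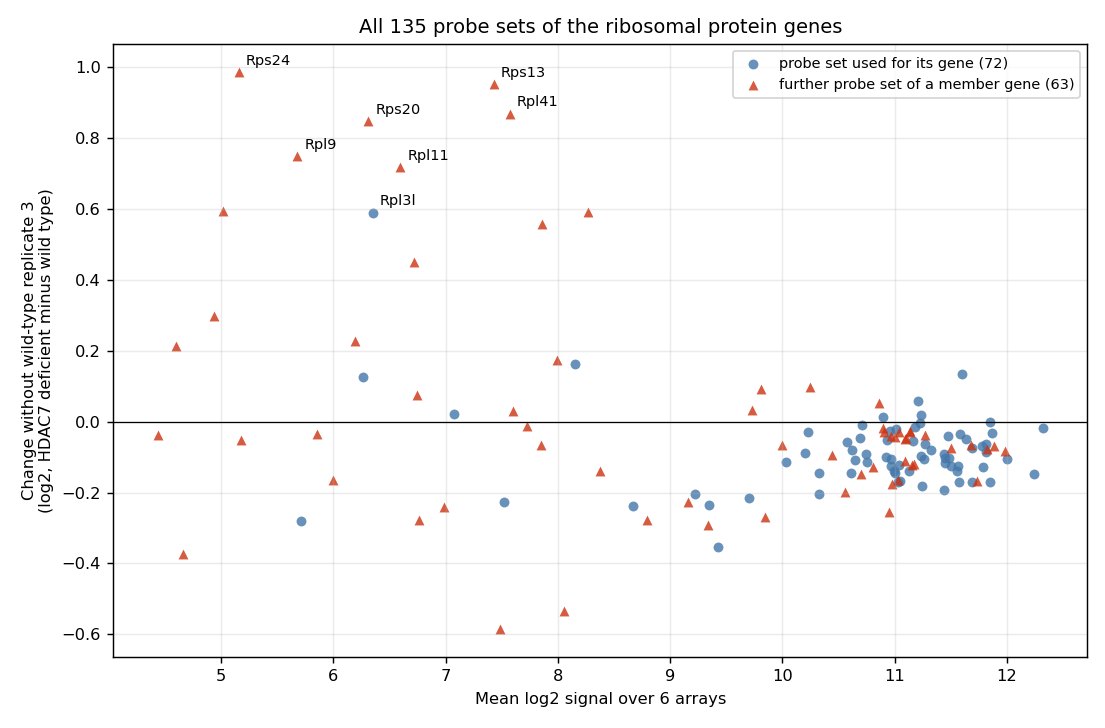
Mean log2 signal (horizontal axis) and change without wild-type replicate 3 (vertical axis, log2, HDAC7 deficient minus wild type) of all 135 probe sets; blue circles represent their gene and red triangles are its further probe sets. Probe sets with signals above 10 lie close to and mostly below 0, while those under 9 spread from -0.59 to 0.99, with Rps24, Rps13, Rpl41, Rpl9, Rpl11 and Rps20 at the top.

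Rps13, a small-subunit protein, shows the contrast within 1 gene. Its dimmest probe set (1415913_PM_at) read 6.85, 6.98 and 7.14 in wild type and 7.79, 7.997 and 7.82 in HDAC7 deficient. The groups stand well apart and wild-type replicate 3 lies with its partners; the change was 0.88 ± 0.24 (limma adjusted p over probe sets = 0.314) and 0.95 without that array (0.141). The brightest probe set of Rps13 read 10.37, 10.55 and 8.25 against 10.36, 10.42 and 10.26, and changed by -0.11 ± 0.11 without it.

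Similar pairs were seen for other genes. For Rpl11, which with Rpl5 and 5S RNA restrains Mdm2, probe set 1448773_PM_at read 6.10, 6.31 and 6.41 against 6.91, 6.97 and 6.90, a change of 0.65 ± 0.21 (limma adjusted p = 0.340). For Rpl9, probe set 1436798_PM_at read 5.30, 5.29 and 5.34 against 6.37, 6.03 and 5.73, a change of 0.74 ± 0.22 (limma adjusted p = 0.327). For Rps24, probe set 1455195_PM_at read 4.53, 4.93 and 4.34 against 6.07, 5.88 and 5.20, a change of 1.12 ± 0.28 (limma adjusted p = 0.306). In all of these the groups do not overlap, although the chosen probe sets of the same genes changed by 0.02 (Rpl11), 0.62 (Rpl9) and -0.25 (Rps24).

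Rpl41, the smallest ribosomal protein, had 2 dim probe sets with positive changes and 2 bright ones with negative changes. Probe set 1433530_PM_at read 7.25, 7.63 and 5.62 in wild type and 8.81, 8.38 and 7.74 in HDAC7 deficient, a change of 1.48 ± 0.57, or 0.87 without wild-type replicate 3. The chosen probe set read 11.13, 11.09 and 11.11 against 10.81, 10.99 and 11.03, a change of -0.17 ± 0.26. The other bright one (1455578_PM_x_at) changed by -0.29 ± 0.29, with overlapping groups. In 3 dim probe sets every HDAC7-deficient array lay below every wild-type array (14.9% of all probe sets), those of Rpl17 (1423856_PM_at), Rpl24 (1447653_PM_x_at) and Rps24 (1436500_PM_at). The Rpl24 probe set read 8.06, 7.34 and 8.16 against 7.30, 7.22 and 6.83 and changed by -0.74 ± 0.32. The Rpl17 probe set read 4.85, 4.53 and 5.65 against 4.32, 4.23 and 4.40 and changed by -0.69 ± 0.28, and that of Rps24 changed by -0.18 ± 0.17. Which part of the transcript each probe set reads was not determined here.

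**Figure D5:**
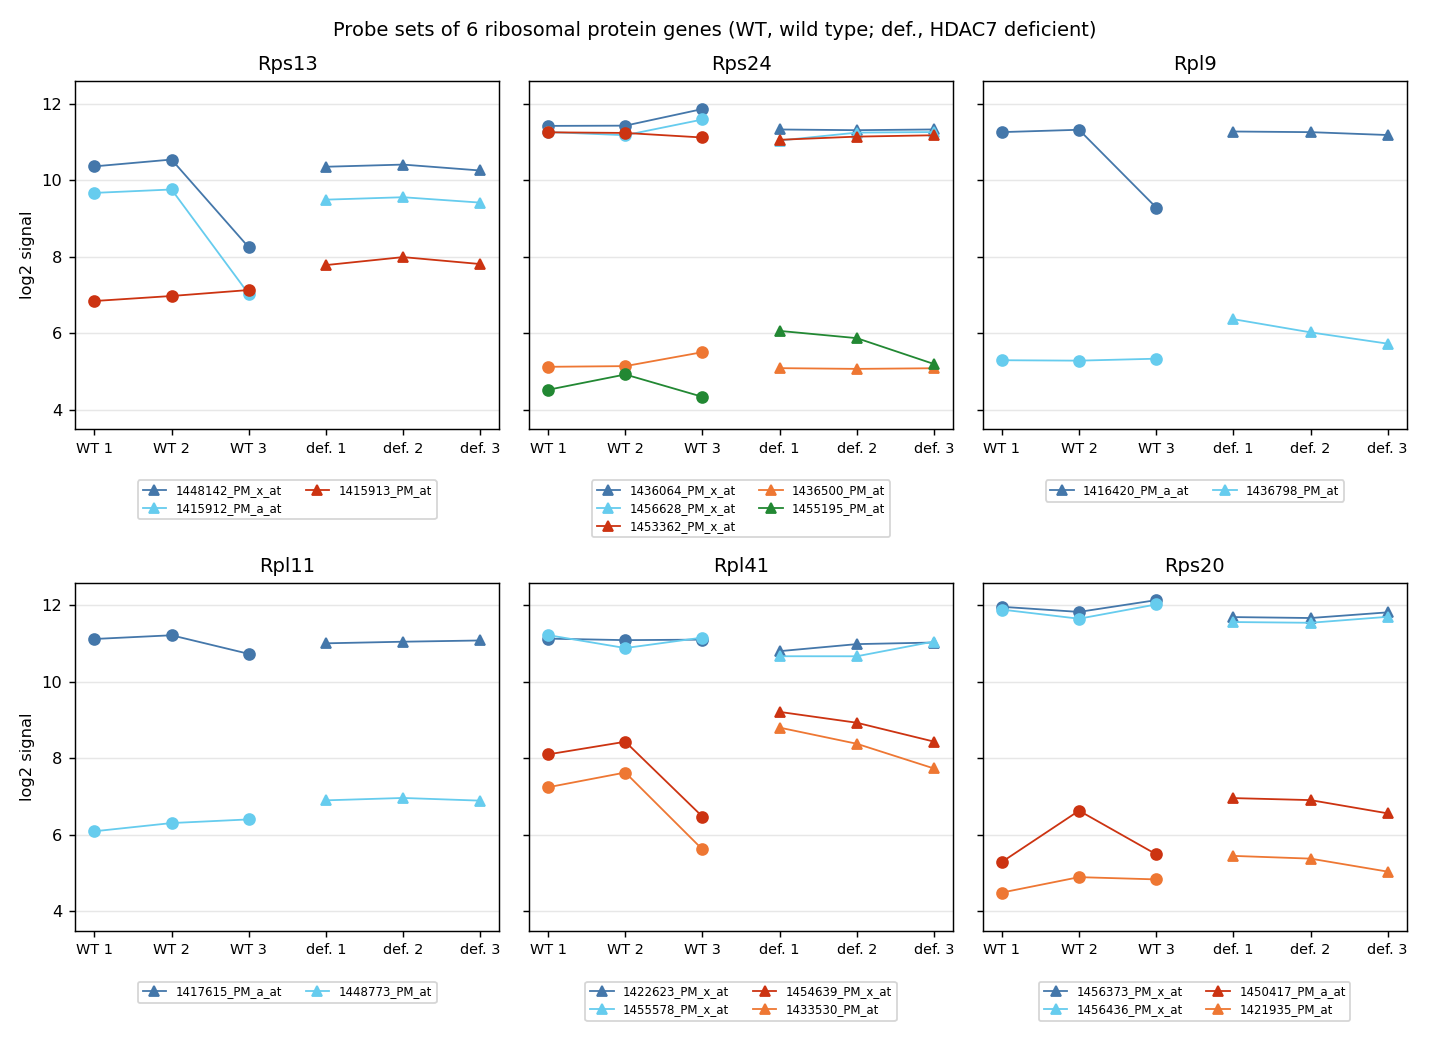
Log2 signal (vertical axes) of every probe set of 6 genes on the 3 wild-type arrays (circles) and the 3 HDAC7-deficient arrays (triangles), 1 colour per probe set; lines join arrays of a group for reading only. The dimmest probe sets of Rps13, Rpl9, Rpl11, Rpl41 and Rps20 read higher in HDAC7 deficient, as does the green one of Rps24, while the brightest ones, wild-type replicate 3 aside, are nearly level.

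Other genes that make or use ribosomes were read from lists chosen by function. None of their genes passed limma's adjusted p of 0.05, with or without wild-type replicate 3. Of 17 measured partners of translation whose mRNAs carry TOP tracts, 13 had a positive change with all arrays (median 0.26). The list includes Fau, which encodes the small-subunit protein eS30, so it is not wholly separate from the ribosomal proteins. Without wild-type replicate 3, 16 were lower (median -0.11), close to the median of the ribosomal protein genes, and 8 had groups that do not overlap (47.1%, against 19.0% of all genes). Among them, Eef2, the translocase of elongation, averaged 11.54 ± 0.79 on the wild-type arrays and 11.97 ± 0.06 on the others (mean ± SD over 3 arrays), with its lowest value, 10.62, on the third wild-type array. Eif3f, an initiation factor subunit, changed by 0.78 ± 0.66 with all arrays and by -0.02 ± 0.07 without that one.

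Ribosome biogenesis factors, 47 measured, had 39 positive changes (median 0.28) with all arrays and 12 without wild-type replicate 3 (median -0.12). Ncl, the nucleolar protein nucleolin, read 7.98, 8.43 and 7.49 in wild type and 8.42, 8.89 and 9.16 in HDAC7 deficient. Its change was 0.86 ± 0.37 (limma adjusted p = 0.377) and 0.62 ± 0.27 without that array. Rrs1, an assembly factor of the large subunit, ran the other way, at 10.11, 9.96 and 10.40 against 9.79, 9.40 and 9.56. Tcof1, which promotes transcription of ribosomal RNA genes, read 7.58, 8.26 and 6.55 against 7.81, 9.52 and 9.44, and was thus high on the 2 HDAC7-deficient arrays that were also high in Xist.

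The 11 measured genes of RNA polymerase I, which transcribes ribosomal RNA, had a median change of 0.45, and 0.10 without wild-type replicate 3. The polymerase subunit gene Polr1d read 8.30, 8.91 and 6.39 against 8.93, 8.97 and 8.88. The 5 measured chaperones of ribosomal proteins had medians of 0.31 and -0.01, and the 16 genes of mTOR and TOP mRNA control had medians of 0.39 and 0.01. Rptor, the mTORC1 subunit that recruits substrates, read 7.17, 8.09 and 5.06 against 7.87, 8.31 and 7.85, with overlapping groups.

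Mitochondrial ribosomal protein genes, 73 measured, offer the nearest comparison by function. With all arrays 66 had a positive change (median 0.45); without wild-type replicate 3, 55 were lower (median -0.10), 7 of them with groups that do not overlap (9.59%, against 19.0% of all genes and 52.8% of the cytosolic genes). In 1 mitochondrial gene the groups did not overlap on the higher side, and the difference between the lists was not tested. Mrps25, of the small mitochondrial subunit, read 7.12, 7.62 and 6.74 in wild type and 8.08, 8.10 and 7.84 in HDAC7 deficient. Mrps5, of the same subunit, ran lower, at 8.77, 8.55 and 8.18 against 8.24, 7.65 and 7.44. Neither passed the test (limma adjusted p = 0.377 for both). Because the arrays measure RNA relative to all RNA of the sample, fewer cells of a type and less of an mRNA in each cell cannot be told apart here.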

How the data were processed

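The authors deposited 1 log2 value per probe set and array, as their range shows; the normalization method is not given in the sources used here. Total RNA was amplified by whole transcriptome amplification, per the labels' protocols. Of 45141 probe sets, 104 controls were set aside. A platform annotation gave 1 symbol for 28898 of the other 45037; 28689 were matched to current RefSeq symbols (GRCm38.p6) and 209 kept the older one. For each of 17097 genes the probe set with the highest mean was used, with no filter on low signals.

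Groups were compared over all genes with limma 3.58.1 in R 4.3.3 (intensity trend, two-sided, Benjamini-Hochberg adjustment, threshold 0.05), a fit that was tested on simulated data. The simulation took means and spread from the arrays other than wild-type replicate 3, with equal noise on each array. It thus did not test the fit with a deviating array such as that one. Errors of changes are standard errors with n = 3 arrays per group. Precision is limited by the number of arrays: exact permutation of 3 against 3 reaches no p below 0.1. No detection calls were used. All adjusted p-values are limma's.

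The members and lists were chosen with earlier results of these data known. Named in full were all members past the threshold, failing which the 8 with the smallest p in each direction, the 8 with the highest and the 8 with the lowest mean, every measured paralogue pair and up to 4 genes of each other list. Further genes (Rpsa, Rplp1, Rps19 and those named by probe set) were chosen after their values were seen. Promoter positions count the RefSeq start base as 0. Alternatives were leaving out each array, blocks for replicate number or Xist, other normalizations, filters, probe set choices and array weights; counts over the 65 ribosomal proteins alone, fits over probe sets and genes with a mean of at least 11 were added after the data were seen. Plots used Python 3.11.15 and matplotlib 3.10.9.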

Additional observations from a re-analysis of the deposited data

How the results depend on the processing

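For 36 named genes and all settings other than the main one, 538 of 604 values kept their direction and their side of the threshold, 60 turned direction and 6 passed the threshold, the last all under array weights. Some of these settings cannot turn a direction. The replicate block, the fit without an intensity trend and the filters on dim genes leave each gene's change as it was. The mean over probe sets does so for genes with a single probe set. The count of kept values is therefore no measure of robustness. No member was called when any single array was left out (0 to 0). Those settings gave 0 to 5 members at an unadjusted p under 0.05, 1 to 7 with groups that do not overlap on the higher side and 11 to 38 on the lower side; 7 higher came without wild-type replicate 2 and 38 lower without wild-type replicate 3. Members at an unadjusted p under 0.05 numbered 2 with the Xist division as a block, 2 with quantile normalization, 0 without the dimmest 50% of genes and 3 without _x_at and _s_at probe sets. Members higher with no overlap numbered 2 with quantile normalization, 0 without the dimmest 50%, 6 with the mean over probe sets and 2 without _x_at and _s_at probe sets. Members lower with no overlap numbered 1 with median centring and 6 with the mean over probe sets. Median centring moved the median change of all genes from -0.03 to 0.10 and put 61 of 72 members higher and 11 lower. The cause of these moves was not tested. Shares of all genes at an unadjusted p under 0.05 or without overlap were taken only with all arrays and without wild-type replicate 3. In the latter, 11.8% of all genes were higher and 19.0% lower with no overlap. Under the other settings these counts have no such share beside them, so their moves are not read as traits of the members.

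Replicate numbers are shared by both groups, but the numbers did not pair the arrays: same-numbered arrays deviated together with correlations of 0.096, 0.208 and 0.476, and arrays 1 and 2 matched another number better. The replicate block called 0 members, with 2 at an unadjusted p under 0.05, and 1 gene in all. Array weights, taken gene by gene because the default estimate did not converge, gave 15 members at an unadjusted p under 0.05 and called 8, 2 higher (Rpl22l1, Rpl3l) and 6 lower (Rpl34, Rpl37a, Rpl39l, Rps20, Rps28, Rps7). They also called 8452 of 17097 genes, with weights from 0.07 (wild-type replicate 3) to 8.68 (wild-type replicate 1). HDAC7-deficient replicate 2 had the next highest weight, 4.12. The call thus rests largely on wild-type replicate 1 and HDAC7-deficient replicate 2.

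Directions of named genes turned as follows. The Xist block without wild-type replicate 3 leaves only HDAC7-deficient replicate 1 against wild-type replicates 1 and 2. Its changes were Rplp0 -0.063, Rps9 -0.10, Rps14 -0.089, Rpl13a -0.046, Rplp2 -0.12, Rpl8 -0.092, Rpl9 -0.015, Rps2 -0.045, Rpl15 -0.040, Rpl35a -0.018, Rpl13 -0.071, Rpl3 -0.030, Rpl7 -0.0053 and Rps4x -0.036. With array weights, the changes were Rps14 -0.086, Rplp2 -0.017, Rpl8 -0.12, Rps2 -0.16, Rpl15 -0.065, Rpl35a -0.10, Rps15a 0.26, Rpl14 -0.039, Rpl7l1 -0.061, Rpl13 -0.19, Rpl3 -0.074, Rpl10 -0.13 and Rps4x -0.050. With the mean over probe sets, the changes were Rps20 0.26, Rps24 0.091, Rpl31 0.11 and Rpl22 0.26. With median centring, the changes were Rpl31 0.049, Rps3a1 0.040, Rps29 0.079, Rps15a 0.024 and Rpl22 0.084. Without _x_at and _s_at probe sets, the changes were Rps20 1.01, Rpl17 0.18 and Rpl31 0.38. With quantile normalization, the changes were Rpl22l1 -0.25 and Rpl13 -0.17. Without wild-type replicate 3, 17 of the 36 turned. Leaving out each array in turn gave ranges of -0.030 to 2.44 for Rps9, -0.11 to 2.59 for Rps14, -0.058 to 1.37 for Rplp2, -0.14 to 1.49 for Rpl8, -0.051 to 0.97 for Rpl9, -0.017 to 0.066 for Rps6, -0.15 to 0.16 for Rps2, -0.11 to 0.0028 for Rps29, -0.063 to 0.20 for Rpl15, -0.087 to 0.11 for Rpl35a, -0.30 to 0.13 for Rps15a, -0.23 to 0.77 for Rpl14, -0.24 to 1.31 for Rpl7l1, -0.20 to 0.55 for Rpl13, -0.034 to 0.14 for Rpl3, -0.019 to 0.64 for Rpl7, -0.073 to 0.28 for Rpl10 and -0.039 to 0.17 for Rps4x.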

Other observations

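The naming rule left out 31 probe sets with related symbols. Rpl5, which joins Rpl11 and 5S RNA in the particle that restrains Mdm2, shares its probe sets with a second symbol, Dipk1a. Its brightest shared probe set (1423665_PM_a_at) read 11.96, 11.94 and 11.40 in wild type and 11.93, 11.81 and 11.89 in HDAC7 deficient, a change of 0.11 ± 0.30, or -0.07 without wild-type replicate 3. Its dimmest one (1451077_PM_at) read 6.30, 7.26 and 6.18 against 7.83, 7.48 and 6.82, a change of 0.79 ± 0.40. Its groups overlap (limma adjusted p over probe sets = 0.361). The dim probe set shared by Rps26, a small-subunit protein, and a clone symbol (1453747_PM_at) read 4.83, 4.85 and 4.89 against 5.39, 5.20 and 5.17. Its groups do not overlap, and the change was 0.40 ± 0.14 (limma adjusted p = 0.351), while the single-symbol probe set of Rps26 changed by -0.09 ± 0.26.

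Fau, which encodes the small-subunit protein eS30 fused to a ubiquitin-like protein, carries no ribosomal symbol. It read 10.95, 11.03 and 9.02 in wild type and 10.91, 10.90 and 10.85 in HDAC7 deficient, a change of 0.55 ± 0.56, or -0.10 without wild-type replicate 3. The 4 probe sets named after pseudogenes changed by -0.08 to 0.35 with all arrays and by -0.07 to 0.21 without that array. Among 11 probe sets of the S6 kinase family, which the name rule excludes, changes ran from -0.56 to 1.36. A dim probe set shared by Rpl3 with 3 other symbols changed by 0.66 ± 0.29, while that of Rpl3 alone changed by 0.08 ± 0.28. None of the 31 probe sets outside the rule passed limma's adjusted p of 0.05.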
